A study of Mus musculus with 8 samples.

Results

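The cells described here were T cells from mouse spleen with captured RNA of a T cell receptor β variable segment other than Trbv14. No Trbv14 RNA was captured from these cells, which does not show that they lacked it. They were chosen by measured UMIs (unique molecular identifiers, 1 per captured RNA molecule): a spleen cell recovered 7 days after transfer was a member with at least 1 UMI of another Trbv gene and none of Trbv14. The rule gave 518 members among 8725 spleen cells, and the series held 16404 filtered and sample-assigned cells in all. Another 3404 spleen cells carried Trbv14 UMIs and no other segment, 132 carried both kinds, and 4671 carried no Trbv UMI. Among the members, 378 cells (73.0%) had exactly 1 such UMI and 140 had 2 or more, up to 6. Of the 132 cells with both kinds, just outside the rule, 9 had more UMIs of the other segments than of Trbv14.

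The study cultured activated CD8+ T cells of 3 donor mice with bone marrow stromal cells (BMSCs) whose mitochondria were labelled with dsRed, a red fluorescent protein. T cells that had taken up dsRed (MitoPositive) and T cells that had not (MitoNegative) were sorted. They were sequenced straight from culture (d0), or transferred to B6 mice with B16KVP tumors and recovered from spleen and tumor on d7. Antibody-linked hashtag oligos marked arm and organ. MitoPositive spleen gave 106, 276 and 9 members for donors 1, 2 and 3, and MitoNegative spleen gave 45, 38 and 44. All of these cells had been activated and kept with BMSCs, in both arms. Each d7 library pooled the samples of 1 donor, and the 2 arms of a donor came from different recipients, so arm and recipients cannot be told apart. The donors' strain, receptor and age are not given in the sources used here. The labels do not say whether recipients were kept apart within a hashtag sample, so p-values measure the spread between hashtag samples.

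An αβ T cell carries 1 rearranged β chain, built from a Trbv, a Trbd and a Trbj segment joined to a constant gene (Trbc1 or Trbc2), and an α chain built from Trav and Traj segments joined to Trac. A normal mouse spleen uses the whole range of Trbv segments, whereas T cells of a receptor-transgenic mouse mostly share a single one. Trbv14, formerly called Vβ13, is the β segment of the pmel-1 transgenic receptor, which recognises the melanocyte protein gp100.

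Trbv14 and the other segments that most often chose a member differ along most of their length. The last 300 coding bases of each are shown because a UMI of one or the other decided the class of a cell. The bases come from the GENCODE vM21 transcripts. Trbv14 lies at chr6:41135145-41135616 of mm10 on the plus strand, Trbv13-1 at chr6:41116007-41116468 and Trbv12-2 at chr6:41118851-41119364, on the same strand. Capitals in Trbv13-1 and Trbv12-2 mark the longest run of bases shared with Trbv14, which was 14 and 11 bases long. Those in Trbv14 mark the run shared with Trbv13-1. The runs lie near the 3′ end of each segment.
Trbv14: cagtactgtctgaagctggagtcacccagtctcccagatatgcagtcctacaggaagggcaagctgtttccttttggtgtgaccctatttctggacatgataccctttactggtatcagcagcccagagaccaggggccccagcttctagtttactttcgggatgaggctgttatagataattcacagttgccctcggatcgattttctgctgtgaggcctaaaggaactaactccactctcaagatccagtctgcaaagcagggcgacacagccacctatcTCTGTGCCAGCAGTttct
Trbv13-1: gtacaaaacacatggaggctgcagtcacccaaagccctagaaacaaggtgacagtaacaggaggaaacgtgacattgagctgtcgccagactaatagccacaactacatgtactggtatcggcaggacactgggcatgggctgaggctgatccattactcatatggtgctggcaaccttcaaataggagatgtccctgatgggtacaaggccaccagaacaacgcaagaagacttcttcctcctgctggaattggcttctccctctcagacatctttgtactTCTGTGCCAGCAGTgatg
Trbv12-2: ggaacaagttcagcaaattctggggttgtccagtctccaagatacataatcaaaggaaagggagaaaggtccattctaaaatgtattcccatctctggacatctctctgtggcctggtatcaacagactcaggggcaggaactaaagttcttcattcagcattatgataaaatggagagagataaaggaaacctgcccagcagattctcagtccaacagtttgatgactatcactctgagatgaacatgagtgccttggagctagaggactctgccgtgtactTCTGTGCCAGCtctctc
Over the aligned bases, Trbv13-1 was 53.3% identical to Trbv14 (179 of 336 bases) and Trbv12-2 was 53.8% identical. They ranked 13 and 11 among 21 segments compared, and the segment most like Trbv14 was Trbv16, at 63.5%. The longest run shared between Trbv14 and any of them was 17 bases, in Trbv4. The hashtag oligos that placed a cell in spleen are shown because they also set its arm. H1 marked MitoPositive spleen and H2 marked MitoNegative spleen, with all bases in capitals.
H1: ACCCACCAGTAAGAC
H2: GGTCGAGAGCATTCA

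The members carried T cell markers. A UMI of Cd3d, Cd3e or Cd3g, the CD3 chains that accompany every T cell receptor, was found in 99.6% to 100% of the members of each sample. Cd8b1, the CD8 β chain, was detected in 96.2, 91.7 and 100% of MitoPositive members of donors 1 to 3 and in 84.4, 92.1 and 75.0% of MitoNegative members. Cd8a, the CD8 α chain, was detected in 83.0, 72.8 and 88.9% of MitoPositive members and in 84.4, 76.3 and 63.6% of MitoNegative members. Most members thus carried CD8 chains, and the lowest shares were those of MitoNegative donor 3. To gauge free RNA, 111 d7 barcodes with no Cd3 UMI and a marker of another cell type were examined. None had a Trbv14 or other Trbv UMI, which allows a share of up to 2.70%, although 16 (14.4%) had a Trbc2 UMI. Members were 1.31% of all spleen cells of MitoNegative donor 1, below that limit. Choosing barcodes without a Cd3 UMI also favours barcodes with little T cell RNA, so this check cannot set the amount of free Trbv RNA. Those barcodes were shallower, with a median of 3113 UMIs, against sample medians of 5270 to 8015 UMIs among members.

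**Figure D1:**
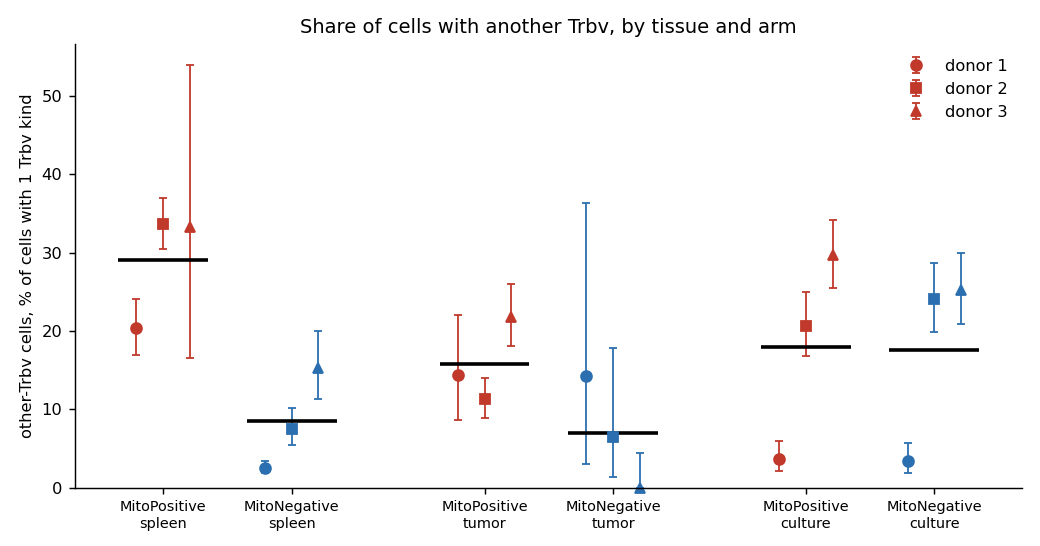
Share of other-Trbv cells (vertical axis, percent of cells with 1 kind of Trbv) by organ and arm, MitoPositive left of MitoNegative, with 1 point per donor, exact 95% binomial intervals as vertical lines and the mean of the 3 donors as a horizontal line. The 3 MitoPositive spleen samples lie between 20.4 and 33.7%, above the 3 MitoNegative spleen samples at 2.55 to 15.3%.

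The members made up a larger part of MitoPositive than of MitoNegative spleen samples. Of cells with 1 kind of Trbv, the members were 20.4, 33.7 and 33.3% in MitoPositive spleen of donors 1, 2 and 3, and 2.55, 7.55 and 15.3% in MitoNegative spleen. The groups did not overlap. MitoPositive spleen averaged 29.1 ± 7.58% and MitoNegative spleen 8.48 ± 6.44% (SD, n = 3 each). These shares count the UMIs that chose the members, so they are a description, here and in culture and tumor, and carry no test. The MitoPositive value of donor 3 rests on 27 cells of 1 Trbv kind.

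In culture, before transfer, the arms had like shares. MitoPositive culture had 3.69, 20.7 and 29.7% for donors 1, 2 and 3, and MitoNegative culture had 3.41, 24.1 and 25.3%. Donor 1 was low in both arms and donors 2 and 3 were high. The share in spleen minus that in culture was 11.1 ± 6.74 percentage points in MitoPositive samples and -9.12 ± 7.87 in MitoNegative samples (SD, n = 3 each). MitoPositive tumor samples had 14.4, 11.3 and 21.8%, and MitoNegative tumor samples had 14.3, 6.52 and 0%. The 0 came from 82 cells, which allows a share of up to 3.66%. Spleen exceeded the tumor of the same donor and arm in 5 of 6 pairs, by 7.42 points on average.

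The members used many segments. MitoPositive samples of donors 1, 2 and 3 held 18, 20 and 9 different segments, and MitoNegative samples held 11, 12 and 17. The effective number of segments, the inverse of the summed squared shares, was 9.96, 12.9 and 9.0 in MitoPositive samples and 3.10, 8.30 and 12.1 in MitoNegative samples. The lowest value, in MitoNegative donor 1, went with Trbv13-1 in 53.3% of its 45 members. Trbv13-1 was also the most frequent segment in MitoNegative donors 2 and 3, at 18.4 and 18.2%. Trbv12-2 led in MitoPositive donors 1 and 2, at 22.6 and 14.1%. Over all members Trbv12-2 was found in 79 cells, Trbv13-1 in 59, Trbv20 in 53, Trbv12-1 in 38 and Trbv19 in 35. The 59 Trbv13-1 cells split into 8, 12 and 0 in MitoPositive and 24, 7 and 8 in MitoNegative donors. Trbv13-1 was also present in 67 of the 132 cells that carried Trbv14 and another segment, which the rule left out.

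**Figure D2:**
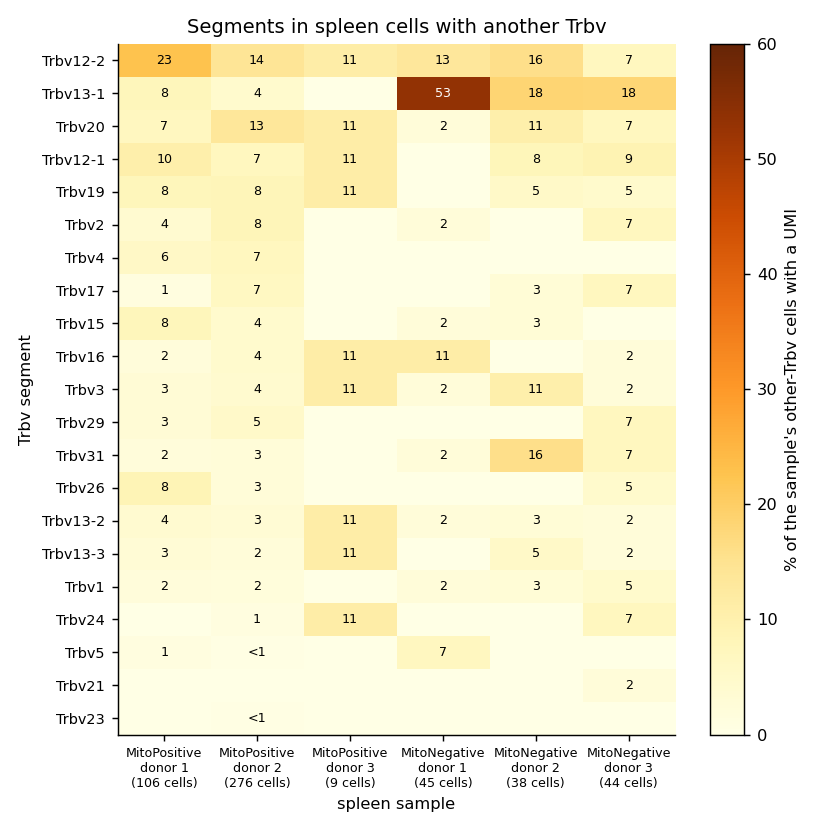
Heat map of the Trbv segments (vertical axis) of the members in the 6 spleen samples (horizontal axis, MitoPositive left of MitoNegative); colour and number give the percent of the sample's members with a UMI of the segment, and an empty box is 0. Trbv13-1 reaches 53.3% in MitoNegative donor 1, while Trbv12-2 leads in MitoPositive donors 1 and 2 at 22.6 and 14.1%.

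Of the receptor constant genes, Trbc2 was lower in the members. The rule counted no constant gene, but Trbc and Trbj are joined to the Trbv segment in the same β transcript. Tests of them are therefore not independent of the Trbv UMIs that set the class. The constant gene Trbc2 was at 1798, 1579 and 1317 CPM (the gene's UMIs scaled to a common total, with a correction for library composition) in MitoPositive members of donors 1, 2 and 3. MitoNegative members had 3827, 1685 and 1551 CPM, against 4960, 4835 and 4433 CPM in MitoPositive and 5463, 5196 and 4888 CPM in MitoNegative Trbv14 cells. Every member sum lay below every Trbv14 sum. The share of all genes that separate in this way was not counted. MitoPositive donor 3 had 9 members, under the minimum of 10 cells for a sum, so the fits used the other 5 samples; its values are given as a description. Trbc2 fell by 1.34 on the log2 scale (SE 0.14, adjusted p = 0.000445, edgeR quasi-likelihood test with Benjamini-Hochberg adjustment). Trbc1 had a log2 difference of -0.22 (edgeR adjusted p = 0.463). Trbc1 and Trbc2 have nearly identical coding sequences, and how their reads were split is uncertain. Trac, the α chain constant gene, differed by 0.01. The CD3 chains and their signalling partner Cd247 had log2 differences of -0.07 (Cd3e), -0.16 (Cd3d), -0.14 (Cd3g) and -0.02 (Cd247). Cd8a and Cd8b1 were at -0.34 and -0.26. None of these passed the test. Of 7 receptor constant genes Trbc2 fell and 6 did not pass, among them Trdc at -1.75 (edgeR adjusted p = 0.0746) and Tcrg-C2 at 1.10 (edgeR adjusted p = 0.149).

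Receptor transcripts were then counted as the share of cells with at least 1 UMI. Trdc, the constant gene of the receptor δ chain, was detected in 4.72, 1.45 and 0% of MitoPositive and 28.9, 23.7 and 2.27% of MitoNegative members. MitoPositive Trbv14 cells had 19.1, 19.5 and 27.8%, and MitoNegative Trbv14 cells had 32.1, 26.2 and 10.3%. Members were lower in 6 of 6 samples. They averaged 10.2 ± 12.7% and Trbv14 cells 22.5 ± 7.79% (SD, n = 6 each). The exact sign-flip test gave p = 0.03125, the smallest it allows, and 0.125 after adjustment over 16 receptor features, of which 0 passed. This and the other sign-flip tests treat the 6 samples as independent, although both arms of a donor share that donor and library. With each cell thinned to 3000 UMIs the Trdc means were 5.80% in members and 16.6% in Trbv14 cells (0 to 19 members and 0 to 93 Trbv14 cells per sample were too shallow and left out), and in the 111 barcodes without Cd3 no Trdc UMI was found. Those barcodes have the limits given with the T cell markers.

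The same count over other receptor genes went both ways. Any Trbj2 segment was detected in 0, 2.17 and 0% of MitoPositive and 8.89, 5.26 and 4.55% of MitoNegative members, against 13.5, 8.84 and 22.2% and 12, 9.46 and 16.5% of Trbv14 cells in those arms. Members averaged 3.48% and Trbv14 cells 13.7%. Trbj2-7 alone was in 2.73% of members and 10.2% of Trbv14 cells. Tcrg-C2, a constant gene of the receptor γ chain, was detected in 11.3, 21.4 and 33.3% of MitoPositive and 0, 18.4 and 6.82% of MitoNegative members. Trbv14 cells had 6.52, 8.66 and 5.56% and 1.16, 3.87 and 3.70% in those arms. Members were higher in 5 of 6 samples (15.2 ± 11.8% and 4.91 ± 2.59%, SD, n = 6 each, exact sign-flip p = 0.0625, adjusted 0.125). Trbc1 was detected in 70.6 ± 9.87% of members and 84.1 ± 11.5% of Trbv14 cells (SD, n = 6 each, exact sign-flip p = 0.0625); thinned to 3000 UMIs the means were 62.1% in members and 66.9% in Trbv14 cells. Trgv2, a γ chain variable segment, was in 13.2, 21.0 and 55.6% of MitoPositive and 2.22, 21.1 and 2.27% of MitoNegative members, against 5.80, 7.55 and 5.56% and 0.523, 3.66 and 4.53% of Trbv14 cells in those arms. Members were higher in 5 of 6 samples. Trgv2 was picked after its values were seen and carries no test.

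**Figure D3:**
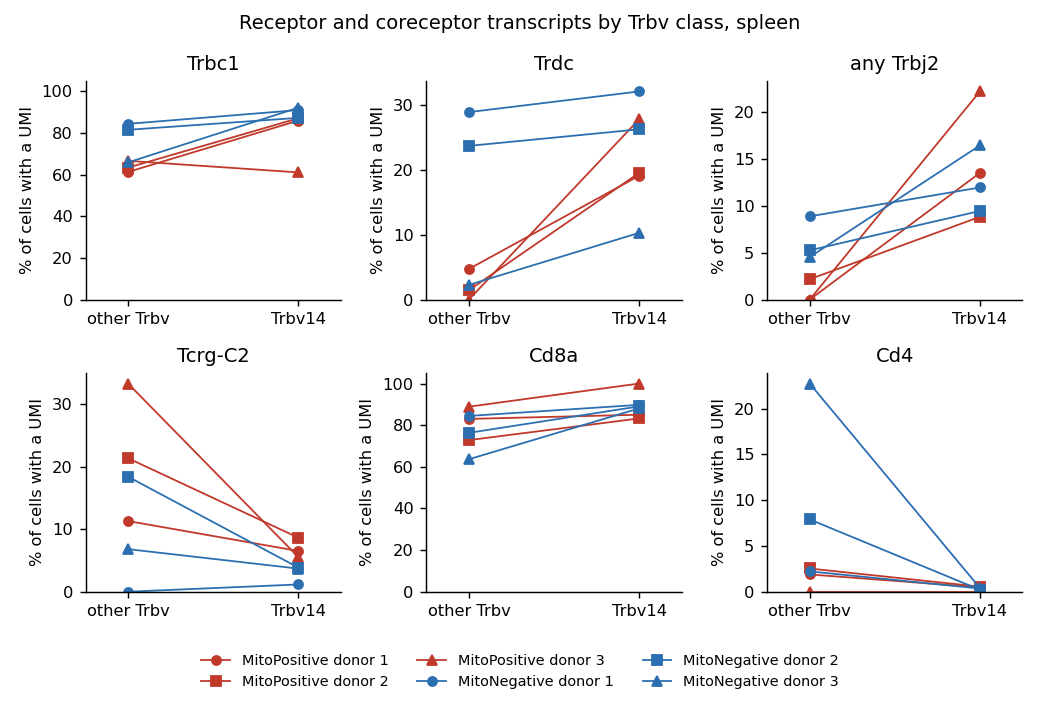
Percent of cells with at least 1 UMI (vertical axes) of 6 receptor and co-receptor features in members (left) and Trbv14 cells (right); each line joins the classes of 1 spleen sample, MitoPositive in red and MitoNegative in blue. Trdc lies lower in members in 6 of 6 samples and Tcrg-C2 higher in 5 of 6.

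Members differed among themselves by segment. With cells pooled by arm and UMIs scaled to a common total alone, Trbc2 stood at 4199 CPM in MitoPositive members with Trbv13-1 and at 1451 in MitoPositive members without it, beside 4731 in Trbv14 cells of that arm. In the MitoNegative arm the values were 3954 with Trbv13-1, 1744 without it, and 5092 in Trbv14 cells. By donor, Trbv13-1 members had 4773 and 3733 CPM in MitoPositive donors 1 and 2, and 4527, 3127 and 2652 in MitoNegative donors 1 to 3. The members without it had 1453, 1448 and 1511 in MitoPositive and 2808, 1414 and 1432 in MitoNegative donors. In each of the 5 samples with Trbv13-1 members, they had more Trbc2 than the other members. Trdc was detected in 15% of MitoPositive and 35.9% of MitoNegative members with Trbv13-1, in 1.6% and 10.2% of those without, and in 19.5% and 28.8% of Trbv14 cells. These pooled levels carry no test, and the cells of 1 segment share their donor.

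**Figure D4:**
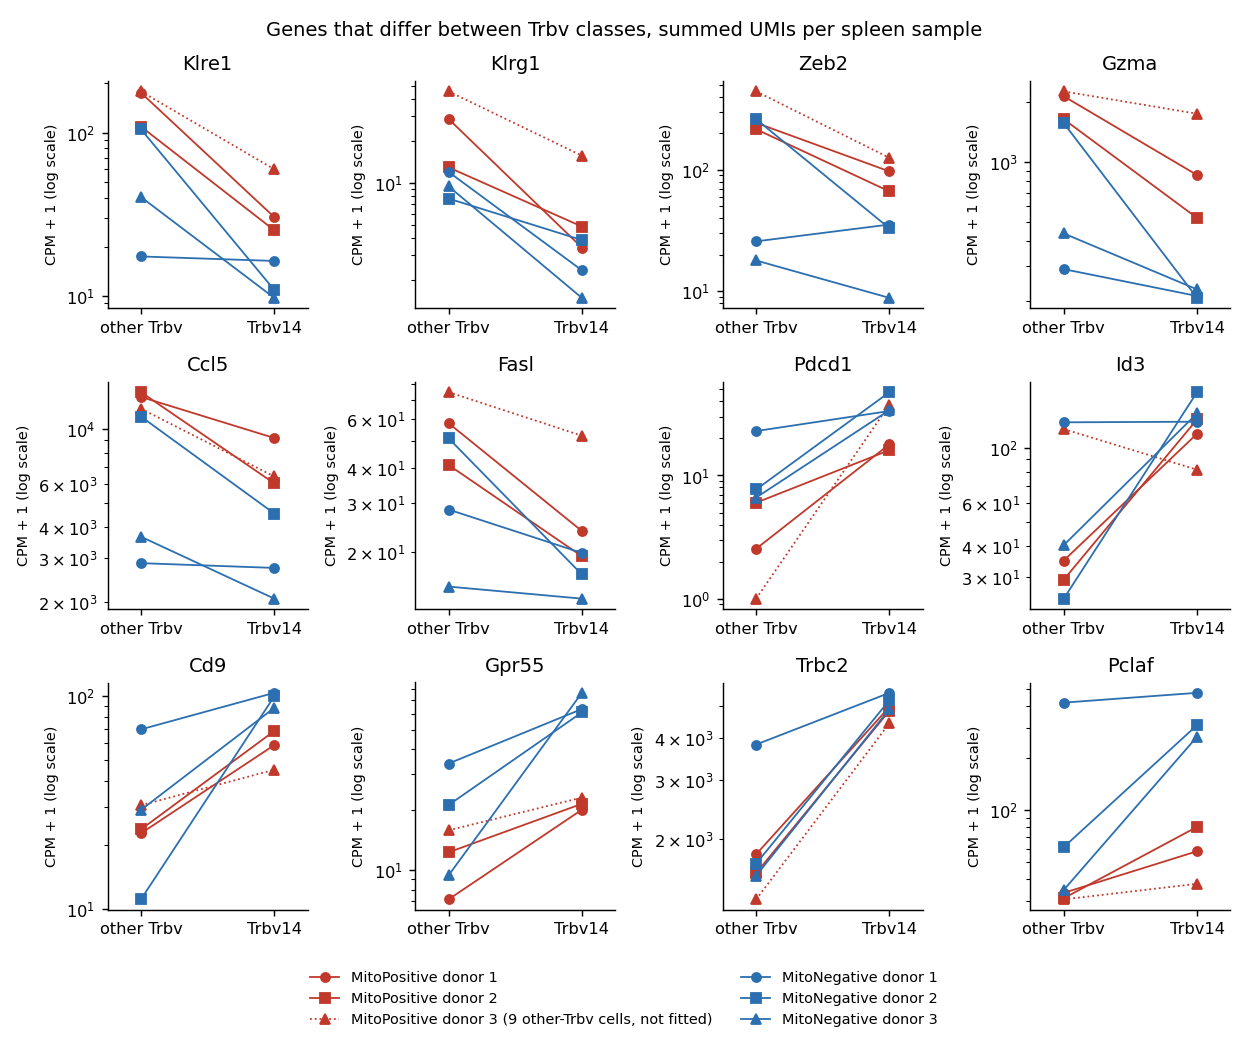
Levels of 12 called genes in members (left) and Trbv14 cells (right), as CPM plus 1 on log axes, with a line for each spleen sample, MitoPositive in red and MitoNegative in blue; the dotted line is MitoPositive donor 3, which was not fitted. Klre1 lies higher and Trbc2 and Pdcd1 lie lower in members in 6 of 6 samples.

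Against the Trbv14 cells of the same samples, the members had more RNA of some cytotoxic effector genes, led by Klre1 and Gzma, and less Trbc2. As said above, Trbc2 can lie in the same transcript as the segment that set the class. edgeR's quasi-likelihood test with the hashtag sample as a block called 41 of 9995 genes at an adjusted p under 0.05, a background of 0.41%. Of these, 23 rose (0.23%) and 18 fell (0.18%). The unadjusted p was under 0.05 for 1021 genes. Of the called genes, 38 went the same way in at least 5 of 6 samples and 21 in all 6. The count rests on donor 2 to a large extent: it was 6 without donor 2, 11 without its MitoNegative sample and 77 without its MitoPositive sample. In those 3 settings Gzma, Klre1, Igfbp4 and Trbc2 were still called. Cycling cells, those with at least 3 G2/M genes detected, were 14.6 ± 14.9% of members and 21.2 ± 11.5% of Trbv14 cells (SD, n = 6 each, exact sign-flip p = 0.09375). Without them 70 genes were called, 34 of the 41 among them.

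Surface receptors of cytotoxic cells were led by Klre1, a lectin-like receptor of NK and effector CD8+ T cells. It was at 174, 108 and 178 CPM in MitoPositive and 16.5, 104 and 39.3 CPM in MitoNegative members, against 29.4, 24.2 and 58.6 CPM and 15.4, 9.89 and 8.74 CPM in Trbv14 cells of those arms. Members were higher in all 6 samples, with hardly any difference in MitoNegative donor 1. Klre1 rose by 2.25 on the log2 scale (SE 0.27, edgeR adjusted p = 0.000735). Klrg1, a marker of terminally differentiated effector cells, was at 27.8, 11.9 and 44.4 CPM in MitoPositive and 11.0, 6.70 and 8.43 CPM in MitoNegative members. In Trbv14 cells it was at 2.42, 3.84 and 14.7 CPM and 1.35, 2.87 and 0.485 CPM. It rose by 2.55 (SE 0.51, edgeR adjusted p = 0.0379) on few UMIs, 2 to 19 per member sum. The call was lost under 10 of 22 settings, with adjusted p up to 0.975 in edgeR, among them 2 or more UMIs of the class and the fits without donor 1 or donor 2. NK cell markers were summed beside these genes: the list of 6 reached 38.1 to 173 CPM in members and 14.6 to 60.6 CPM in Trbv14 cells, with Klra4 at 0 in members. Their part in the result was not tested.

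Secreted and transcriptional effector genes rose too in the fit over both arms. Gzma, which encodes the protease granzyme A, was at 2126, 1630 and 2250 CPM in MitoPositive and 288, 1557 and 435 CPM in MitoNegative members. Trbv14 cells had 855, 521 and 1737 CPM in MitoPositive and 211, 206 and 228 CPM in MitoNegative samples. Gzma rose by 1.51 (SE 0.23, edgeR adjusted p = 0.00929). Zeb2, a transcription factor of terminal effector differentiation, was at 244, 216 and 444 CPM in MitoPositive and 24.7, 261 and 16.9 CPM in MitoNegative members, against 96.1, 65.3 and 125 CPM and 34.4, 31.9 and 7.76 CPM in Trbv14 cells. It was lower in members in MitoNegative donor 1 and higher in the other 5 samples. Zeb2 rose by 1.63 (SE 0.28, edgeR adjusted p = 0.0154). Fasl, the ligand of the death receptor Fas, rose by 1.11 (SE 0.22, edgeR adjusted p = 0.0315), and the chemokine gene Ccl5 rose by 0.84 (SE 0.14, edgeR adjusted p = 0.0154). Of 27 effector genes tested, these 6 rose, 0 fell and 21 did not pass, with a median log2 difference of 0.42, against -0.0034 over all genes. As shares of cells with a UMI, the rise was absent in MitoNegative donors 1 and 3 for Fasl, Ccl5 and Zeb2. Their members had Fasl in 8.89 and 6.82%, against 12.4 and 7.41% of Trbv14 cells. Ccl5 was in 73.3 and 47.7%, against 85.8 and 74.5%, and Zeb2 in 8.89 and 4.55%, against 10.1 and 4.94%. The other samples had higher or level member shares for these genes. Gzma was lower only in MitoNegative donor 1, at 15.6% against 16.8%. With members pooled over the samples, Klre1, Gzma and Zeb2 were often detected in the same cells. Of 123 members with a Klre1 UMI, 73.2% had Gzma and 44.7% had Zeb2, against 33.2 and 17.5% of the other 395 members. The same held in Trbv14 cells, where 48.6% of the 214 cells with Klre1 had Gzma and 32.2% had Zeb2, against 16.4 and 7.65% of the others. These pooled shares carry no test, and co-detection within a sample was not counted. Klre1 and Gzma shares both varied between samples. MitoPositive donor 1 members had 32.1 and 59.4%, and MitoNegative donor 1 members had 6.67 and 15.6%.

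Genes of inhibition and memory fell or rose singly. Pdcd1, which encodes the inhibitory receptor PD-1, was at 1.54, 5.01 and 0 CPM in MitoPositive and 22.0, 6.70 and 5.62 CPM in MitoNegative members. Trbv14 cells had 16.9, 15.1 and 36.6 CPM and 32.4, 46.6 and 33.0 CPM in those arms. Members were lower in all 6 samples, and Pdcd1 fell by 1.75 (SE 0.33, edgeR adjusted p = 0.0249). The call was lost under 6 of 22 settings, among them thinned cells, 2 or more UMIs of the class and the fit without donor 2. It was the only one of 15 exhaustion and inhibitory receptor genes that passed. Id3, an inhibitor of E proteins linked to long-lived memory precursors, was at 33.9, 28.2 and 118 CPM in MitoPositive and 126, 23.4 and 39.3 CPM in MitoNegative members, against 113.3, 130 and 80.6 CPM and 127, 168 and 137 CPM in Trbv14 cells. MitoNegative donor 1 had like values in both classes, and MitoPositive donor 3, which was not fitted, was higher in members. Id3 fell by 1.53 (SE 0.26, edgeR adjusted p = 0.0154). Lef1, a transcription factor of naive and memory T cells, was at 239, 261 and 148 CPM in MitoPositive and 148, 178 and 539 CPM in MitoNegative members, against 161, 206 and 183 CPM and 62.7, 75.3 and 78.1 CPM in Trbv14 cells. It rose by 1.20 (SE 0.25, edgeR adjusted p = 0.0476), with 0.45 in MitoPositive spleen (edgeR adjusted p = 0.9999) and 1.88 in MitoNegative spleen (edgeR adjusted p = 0.000638). The call over both arms was lost under 8 of 22 settings, among them without donor 1, without donor 2 and without cells that had a Cd4 or Foxp3 UMI. Id3 and Lef1 were the 2 that passed among 21 naive and memory genes.

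Other called genes fell into no list as a group. The imprinted non-coding RNA Airn (1.58, SE 0.25, edgeR adjusted p = 0.0113), the phosphodiesterase gene Pde2a (1.31, SE 0.24, edgeR adjusted p = 0.0232) and AA467197 (1.20) rose. Among those that fell were the tetraspanin gene Cd9 by 1.43 (SE 0.22, edgeR adjusted p = 0.00929), the lipid receptor gene Gpr55 by 1.38, the chemokine gene Cxcl10 by 2.59 (SE 0.48, edgeR adjusted p = 0.0232), the repressor gene Zbtb32 by 1.68, Nrn1 by 1.84, Gm43647 by 2.16, Prr11 by 3.73 and the adhesion gene Alcam by 1.12. Pclaf, a replication factor, fell by 1.25 (SE 0.26, edgeR adjusted p = 0.0476), and was not called under 12 of 22 alternative settings. It was the only one of 22 S phase genes to pass, and 0 of 22 G2/M genes passed, though all 22 had negative log2 differences with a median of -0.93. Of 27 interferon response genes, Ifi27l2a fell and 26 in all were negative, with a median of -0.30. Ifitm3 (interferon-induced transmembrane protein 3), which is not on that list, rose by 0.92 (SE 0.18, edgeR adjusted p = 0.0344). Of 30 ribosomal protein genes 0 passed.

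A few members carried Cd4 or Foxp3 RNA. Cd4, the co-receptor of helper T cells, was detected in 1.89, 2.54 and 0% of MitoPositive and 2.22, 7.89 and 22.7% of MitoNegative members. Trbv14 cells had 0.483, 0.552 and 0% in MitoPositive and 0.349, 0.215 and 0.412% in MitoNegative samples. The share was highest in MitoNegative donor 3, the sample with the lowest Cd8 shares. In the spleen sums, Cd4 rose by 4.27 (SE 0.68, edgeR adjusted p = 0.0113) and Foxp3, the regulatory T cell factor, by 5.07 (SE 0.84, edgeR adjusted p = 0.0142). Ikzf2, also on the list of regulatory T cell markers, was detected in 7.55, 8.70 and 22.2% of MitoPositive and 13.3, 5.26 and 15.9% of MitoNegative members. Trbv14 cells had 17.1, 19.5 and 5.56% and 13.1, 19.6 and 22.6% in those arms. Members were higher in MitoPositive donor 3, about level in MitoNegative donor 1 and lower in the other samples. As whole lists the classes overlapped. Cd4 and Zbtb7b, the CD4 list, summed to 17.0 to 118 CPM in members and 17.4 to 44.7 CPM in Trbv14 cells. The medians were 23.0 and 18.8 CPM. Foxp3, Ikzf2 and Il2ra, the regulatory T cell list, summed to 34.0 to 130 CPM in members and 28.8 to 81.1 CPM in Trbv14 cells. Igfbp4, an IGF-binding protein gene, was at 17.0, 21.9 and 0 CPM in MitoPositive and 104, 53.6 and 180 CPM in MitoNegative members, and at no more than 5.10 CPM in any Trbv14 sum. It rose by 4.63 (SE 0.53, edgeR adjusted p = 0.000735). Pdlim4 rose by 4.66 (SE 0.68, edgeR adjusted p = 0.00768).

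These transcripts lay in a small set of members. Of the 23 members with a Cd4 UMI, 4 (17.4%) also had a Cd8a or Cd8b1 UMI, against 95.2% of the other 495. Igfbp4 was detected in 13 of the 23, against 5.86% of the others. Of 9 members with a Foxp3 UMI, 4 had Cd4 and 2 had a CD8 chain. All 13 Trbv14 cells with a Cd4 UMI had a CD8 chain. These counts pool the cells of all samples and carry no test. With cells that carried Cd4 or Foxp3 UMIs removed from both classes, 37 genes were called, a setting added after the data were seen.

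The class difference was not the same in both arms for a few genes. The interaction of class and arm was called for 6 of 9995 genes (0.06%), 2 positive (0.02%) and 4 negative (0.04%). Bach2, a repressor that keeps T cells from terminal differentiation, was at 149, 247 and 266 CPM in MitoPositive and 123, 248 and 368 CPM in MitoNegative members, against 157, 216 and 234 CPM and 61.1, 75.9 and 99.97 CPM in Trbv14 cells of those arms. In MitoNegative spleen every member sum was above every Trbv14 sum, and in MitoPositive spleen the classes overlapped. Bach2 was named because its interaction passed in these same sums, so that separation adds no evidence. The class difference of Bach2 was 0.09 in MitoPositive and 1.62 in MitoNegative spleen, an interaction of -1.53 (SE 0.24, edgeR adjusted p = 0.0181). Vps37b (-1.92, SE 0.30, edgeR adjusted p = 0.0152) and Tnfsf8, the CD30 ligand gene (-1.61, SE 0.27, edgeR adjusted p = 0.0307), went the same way. The 2 positive ones, S100a8 and S100a9, rested on single cells. The count of 6 was 149 without donor 1 and 3 without donor 3. Without donor 3 the calls of Bach2, Vps37b and Tnfsf8 were lost, and S100a8 and S100a9 were kept. The call of Bach2 was also lost without donor 2, and those of Bach2 and Tnfsf8 without cells that had a Cd4 or Foxp3 UMI.

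Taken arm by arm, the class fit called 20 genes (0.2%) in MitoPositive spleen, of which 6 rose (0.06%) and 14 fell (0.14%). In MitoNegative spleen it called 88 (0.88%), of which 58 rose (0.58%) and 30 fell (0.3%). Of 21 naive and memory genes, 0 rose and 2 fell in MitoPositive members (Id3 and Slamf6), while 7 rose and 0 fell in MitoNegative members (among them Lef1, Ccr7, Bach2, Foxp1, Satb1 and Bcl2). MitoNegative donor 3, with Cd4 in 22.7% of its members, had the highest Lef1 and Bach2 levels of the 6 member sums. Without cells that had a Cd4 or Foxp3 UMI, 6 of the 21 genes rose in MitoNegative members, with Bach2 at 1.51 (edgeR adjusted p = 0.00389) and Lef1 at 1.65 (edgeR adjusted p = 0.0178), and Ccr7 at 1.10 did not pass (edgeR adjusted p = 0.16). The difference between the arms was tested gene by gene only, and Bach2 passed with the limits given above.

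**Figure D5:**
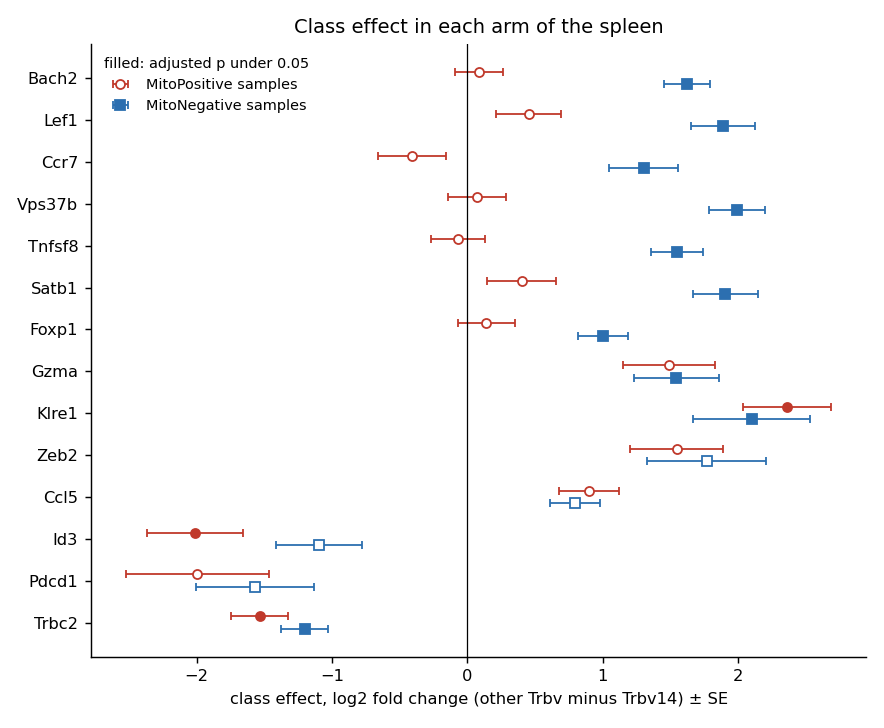
Class difference (horizontal axis, log2, members minus Trbv14 cells, with SE bars) for 14 genes in MitoPositive spleen (red circles) and MitoNegative spleen (blue squares); filled symbols passed the test in that arm. Bach2 lies at 0.09 in MitoPositive and at 1.62 in MitoNegative spleen.

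Within the members, the main fit called some replication genes lower in MitoPositive than in MitoNegative cells, but these calls did not hold under every setting. The fit used the members of donors 1 and 2 in both arms with MitoNegative donor 3, so in effect 2 donors carried the comparison. MitoNegative donor 3, alone in its block, added nothing to the arm difference. The 5 sums left hardly any residual degrees of freedom. It called 13 of 5443 genes (0.239%), of which 2 rose (0.0367%) and 11 fell (0.202%), and 366 genes had an unadjusted p under 0.05. Gimap7, a GTPase gene of lymphocytes, was at 273, 281 and 370 CPM in MitoPositive and 54.9, 164 and 129 CPM in MitoNegative members. MitoPositive members were higher in each donor. Gimap7 rose by 1.43 (SE 0.28, edgeR adjusted p = 0.0282), and Ctla2a, a cathepsin inhibitor gene, rose by 1.17 (SE 0.22, edgeR adjusted p = 0.0282). Trdc was at 23.1, 11.3 and 0 CPM in MitoPositive and 110, 107 and 2.81 CPM in MitoNegative members, and fell by 2.75 (SE 0.40, edgeR adjusted p = 0.00572).

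Genes of DNA replication that fell were Pole, a polymerase subunit gene, by 2.73, Mcm4 by 1.77 and Mcm7 by 1.60, both helicase subunit genes, and Pclaf. Pclaf was at 32.4, 30.1 and 29.6 CPM in MitoPositive and 417, 60.3 and 33.7 CPM in MitoNegative members, and fell by 2.48 (SE 0.39, edgeR adjusted p = 0.00812). The MitoNegative value of donor 1 stood apart. Rad51b, of recombination repair, fell by 2.36, the chromatin gene Hmgn1 by 1.50 and Igfbp4 by 1.89. Of 14 S phase genes tested 4 fell, 0 rose and all 14 were negative. In the Trbv14 cells of the same spleens 862 of 9971 genes (8.65%) were called, with 299 higher (3.0%) and 563 lower (5.65%), 22 of 22 S phase genes fell, and 10 of 20 naive and memory genes rose. The members' 13 calls did not hold under every setting: the count was 0 with DESeq2, without cycling cells and without Trbv13-1 members, and 23 without donor 3. Leaving out donor 3, fitted in the MitoNegative arm only, changed the genes tested (6350 instead of 5443) but not the donors compared. MitoNegative donor 1, where Trbv13-1 led, also had 42.2% cycling members, and the other samples had 0 to 18.4%.

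Other-Trbv cells were set against Trbv14 cells in culture and tumor in the same way, in fits added after the spleen values were seen. The class fit called 222 of 9954 genes (2.23%) in culture, over 6 samples, of which 177 rose (1.78%) and 45 fell (0.452%). It called 1886 of 8157 (23.1%) in tumor, 1013 higher (12.4%) and 873 lower (10.7%), over the 3 MitoPositive samples that had at least 10 other-Trbv cells. The tumor classes differed in UMIs per cell. In MitoPositive tumor of donor 2, 70 other-Trbv cells held 587714 UMIs and 550 Trbv14 cells held 11342201. In donor 3, 97 other-Trbv cells held 832962 UMIs and 347 Trbv14 cells held 8061798. Trbv14 cells thus had more UMIs per cell, as they also did in donor 1. Its part in the tumor calls was not tested. Of the 41 genes called in spleen, 34 were tested in culture, where 7 were called in the same and 6 in the opposite direction. In tumor 32 were tested, 22 were called in the same and 4 in the opposite direction. Trbc2 was lower in all 3 places, with a log2 difference of -1.34 in spleen, -1.19 in culture (SE 0.11, edgeR adjusted p = 3.09e-09) and -1.32 in tumor (SE 0.11, edgeR adjusted p = 1.05e-05). Klre1 had 1.30 in culture (edgeR adjusted p = 0.0345) and 0.51 in tumor (edgeR adjusted p = 0.0399). Gzma was 0.37 in culture, not called, and 3.80 in tumor (SE 0.14, edgeR adjusted p = 7.36e-09), where MitoPositive other-Trbv cells had 1975, 1719 and 2287 CPM, against 193, 107 and 180 CPM in Trbv14 cells. Pdcd1 was 1.56 in culture, not called, and -1.60 in tumor (SE 0.21, edgeR adjusted p = 0.00024). Id3 was -0.33 in culture and rose by 2.01 in tumor (SE 0.42, edgeR adjusted p = 0.0045), the opposite of its direction in spleen. Pclaf likewise rose by 1.29 in culture (SE 0.18, edgeR adjusted p = 3.9e-06). Whether these differences between places exceed the error was not tested.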

How the data were processed

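The authors deposited UMI counts per gene and cell barcode from 10x 3′ libraries, with hashtag oligos among the features; per the submitters' processing notes they used Cell Ranger 7.0.0, Seurat 4.0.5, GRCm38 and mm10. Barcodes with at least 500 genes and under 15% mitochondrially encoded UMIs were kept. A barcode took its top hashtag where that had 10 UMIs or more and exceeded the next at least 3 times. No doublet caller was run; the hashtag rule drops doublets between samples only. The libraries had median depths of 5961 to 8853 UMIs per cell, and pairs of libraries shared 1 to 9 barcodes. Member medians averaged 6662 ± 965 UMIs and Trbv14 medians 7117 ± 842 (SD, n = 6 each, exact sign-flip p = 0.21875).

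UMIs were summed per hashtag sample and class where at least 10 cells were present, giving 10 sums. They were fitted with edgeR 4.0.16 in R 4.3.3 (filterByExpr, TMM, quasi-likelihood test, Benjamini-Hochberg over all genes tested, threshold 0.05). Trbv genes were left out. The hashtag sample was the block between classes. The donor was the block between arms, because the labels give 1 library per donor. Deviations of same-donor samples correlated at 0.0398 and 0.0270, and those of different donors at -0.0398 to 0.0183. Only donors 1 and 2 had a fitted MitoPositive sum, so their deviations mirror each other. The correlations therefore cannot show whether samples of a donor pair. Shares of cells with a receptor UMI were compared with two-sided exact sign-flip tests in scipy 1.17.1. Intervals and limits cover counting error only; a count of 0 allows up to 3 counts. The fits were tested on simulated counts.

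Members and gene lists were chosen with earlier results of these data known. Genes were named by a rule: the 12 highest and 12 lowest class differences that passed and went the same way in at least 5 of 6 samples, the 8 highest and 8 lowest arm differences with 3 of 3 donors, the 5 highest and 5 lowest interactions, the receptor, CD3 and CD8 genes, and list genes that passed. Trgv2, S100a8 and S100a9 counts by cell, and the comparison by segment, were chosen after values were seen. A gene among the interactions that the rule selects is not reported here.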

Additional observations from a re-analysis of the deposited data

Results flagged for a closer look

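The difference between members and Trbv14 cells was itself different in MitoPositive and MitoNegative spleen for several genes, by the interaction term of the edgeR fit. The interaction was 13.83 for S100a9 (adjusted p = 0.0152), 10.874 for S100a8 (adjusted p = 1.57e-05), -1.921 for Vps37b (adjusted p = 0.0152), -1.615 for Tnfsf8 (adjusted p = 0.0307) and -1.5335 for Bach2 (adjusted p = 0.0181), on the log2 scale, MitoPositive minus MitoNegative.

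The S100a8 and S100a9 values rest on single cells. In MitoPositive members 480 of 482 S100a8 UMIs and 603 of 604 S100a9 UMIs came from a single cell, and in MitoNegative Trbv14 cells 173 of 184 and 77 of 96 came from a single cell. Both genes are markers of neutrophils and monocytes. The summed myeloid list reached 151 to 868 CPM in members and 123 to 255 CPM in Trbv14 cells.

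Vps37b, Tnfsf8 and Bach2 were spread over samples. Vps37b was at 52.4, 87.7 and 14.8 CPM in MitoPositive and 79.6, 107 and 180 CPM in MitoNegative members, against 54.6, 79.8 and 65.9 CPM and 30.0, 26.5 and 34.9 CPM in Trbv14 cells. Tnfsf8 was at 70.9, 107 and 44.4 CPM in MitoPositive and 140, 107 and 169 CPM in MitoNegative members, against 97.5, 93.1 and 132 CPM and 42.8, 50.4 and 55.8 CPM in Trbv14 cells. For each of the 3 genes, every MitoNegative member sum was above every MitoNegative Trbv14 sum. These genes were chosen by the interaction in the same sums, so the separation adds no evidence. The share of all genes that separate in this way was not counted.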

How the results depend on the processing

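The direction of the 24 class differences, 6 interactions and 10 arm differences held under each alternative run: of 731 values for these genes, 519 kept the call, 212 lost it and 0 changed sign. The counts of calls moved more. The class count of 41 was 63 with DESeq2, 337 with no count filter, 165 without the most frequent segment of each sample, 70 without cycling cells and 3 with no replicate block (Foxp3, Igfbp4 and Pdlim4), and 6 to 77 with a sample or donor left out. With 2 or more UMIs of the class it was again 41, of which 21 were among the 38 original genes tested, and thinned cells gave 59, with 26 of 38. Settings added after the data were seen gave 138 without Trbv13-1 members (40 of the 41 among them) and 87 with sums of 9 or more cells. The interaction count of 6 was 62 with no count filter, 56 with hashtags called by HTODemux, 33 with 2 or more UMIs of the class, 63 without the most frequent segment, 23 without cycling cells, 0 with no replicate block (485 genes at an unadjusted p under 0.05) and 3 to 149 with a donor left out. Added settings gave 96 without Trbv13-1 members, 3 without Cd4 or Foxp3 cells and 12 with sums of 9 or more cells. The arm count of 13 among members was 0 with DESeq2 size factors (286 genes at an unadjusted p under 0.05), 0 with DESeq2 (32), 64 with no count filter, 2 with thinned cells, 6 with T cell markers required, 3 without the most frequent segment, 0 without cycling cells (247), 0 with no replicate block (243) and 23 without donor 3. Added settings gave 0 without Trbv13-1 members (246), 2 without Cd4 or Foxp3 cells, 0 with sums of 9 or more cells (262) and 1 in a joint fit of both classes, which gave 22, 153 and 1 without donors 1, 2 and 3. The causes were not tested. HTODemux and the 2-UMI rule left too few sums for the arm fit, and without donor 1 or 2 it had 0 residual degrees of freedom. HTODemux gave the same sample to 36.3, 44.6 and 94.2% of the cells of d7 donors 1, 2 and 3 and to 92.5% in culture.

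Depth limits these results. A class rests on 1 UMI in 73.0% of members and 59.0% of Trbv14 cells, 4671 spleen cells had no Trbv UMI, and MitoPositive donor 3 gave 9 members.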

Other observations

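Trbv13-1 members of MitoNegative spleen, which had Trbc2 and Trdc levels nearer those of Trbv14 cells, also had values near them for other genes. Pclaf was at 450 CPM with Trbv13-1, 56 without it and 405 in Trbv14 cells, Id3 at 144, 31 and 128, and Gzma at 91, 1024 and 201. In MitoPositive spleen Id3 was at 141, 26 and 118 CPM and Gzma at 946, 1784 and 676. These are pooled values with no test, from 39 MitoNegative and 20 MitoPositive cells with Trbv13-1, 24 of them from 1 sample.

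In tumor, 25 of 25 interferon response genes had positive log2 differences between MitoPositive other-Trbv cells and Trbv14 cells. Their median was 1.80, against -0.016 over all 8157 genes tested, of which 1013 were called higher. By sample, Irf9 was lower in other-Trbv cells of donor 2 (15.4 against 18.2 CPM). The tumor classes differed in UMIs per cell, as given above. In spleen 0 of the 27 listed genes passed upward, and the difference between organs was not tested. Ifitm3, outside the list, rose in both organs, by 0.92 in spleen (edgeR adjusted p = 0.0344) and 1.29 in tumor (edgeR adjusted p = 0.000901).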
